A study of Mus musculus with 30 samples.

Results

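The question was which genes answered 24 h without food differently in liver (LIV) and in epididymal white adipose tissue (WAT), a visceral fat pad of the male mouse. Male wild-type C57Bl/6J mice aged 10 to 12 weeks either had chow at all times (fed) or had their food removed for 24 h from 9 a.m., the start of the light phase (fasted), with 5 mice in each group. RNA of whole WAT, LIV and thigh skeletal muscle (SM) was hybridised to Affymetrix arrays (Mouse Gene 1.1 ST), 1 array per mouse and tissue, 30 in all. For each gene the fasting change (fasted minus fed, on the log2 scale) was taken in WAT from 5 fed and 5 fasted arrays and in LIV from 4 fed and 5 fasted arrays, and the LIV change was subtracted from the WAT change. These 19 arrays of the 30, and all 18781 genes with a probe set of their own, entered the comparison. Fed LIV 4 was left out, and the SM arrays served to estimate the spread and for 1 comparison given at the end of the results on opposite changes. Nothing in the labels said that a WAT array and a LIV array of the same number came from the same mouse.

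WAT and LIV carry out opposite parts of the fasting programme. Adipocytes hydrolyse stored triglyceride and release fatty acids and glycerol, and they stop taking up glucose and making fat when insulin falls. Hepatocytes take up these fatty acids, oxidise them, turn part of them into ketone bodies and store part in lipid droplets, and they make glucose from lactate, glycerol and amino acids. Both tissues respond to the same hormones, falling insulin and rising glucagon and glucocorticoid, through transcription factors such as the FoxO proteins, the glucocorticoid receptor, Srebf1 and, mostly in liver, Ppara.

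The labels of the tissues fitted their markers. The summed linear level of 9 hepatocyte markers lay between 49100 and 52900 array units in LIV and between 249 and 390 in WAT, and that of 8 adipocyte markers reached 27100 to 32200 in WAT but 776 to 924 in LIV. On average, the correlation of an array with the others of its group was 0.991 to 0.996 for the 19 arrays and 0.987 for fed LIV 4. Every array is a bulk tissue sample, so fewer cells of a type and less RNA per cell cannot be told apart.

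All changes are on the log2 scale, fasted minus fed, with their SE. A change was called where the adjusted p was under 0.05 and the change at least 1.3-fold. By this rule 15.8% of the genes changed in WAT (8.0% rose and 7.75% fell), 7.55% changed in LIV (3.54% rose and 4.01% fell), and the change itself differed between the tissues for 16.1% (8.19% with the higher change in WAT and 7.91% with the lower). Over probe sets, 3876 of 28815 differed, 2016 of them higher in WAT and 1860 lower. Across the 18781 genes the changes in WAT and LIV were weakly related (Pearson's r 0.218, Spearman's rho 0.193, a description across genes, which are not independent replicates and which share the arrays of each tissue). The median change was 0.0052 in WAT and 0.0318 in LIV.

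The 3023 genes that differed fell into 5 kinds. Fasting moved 104 genes (0.554% of all genes) in opposite directions, each direction called by itself. It changed 1421 genes (7.57%) in WAT only and 492 genes (2.62%) in LIV only, where "only" means called in the one tissue and the difference, with an adjusted p of at least 0.05 and a change under 1.3-fold in the other. A further 88 genes (0.469%) changed in the same direction by different amounts. The other 918 met none of these definitions, and 708 of them were called in neither tissue alone. Of 501 genes called in both tissues, 397 moved the same way, and 309 of these did not differ in size by the test.

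**Figure D1:**
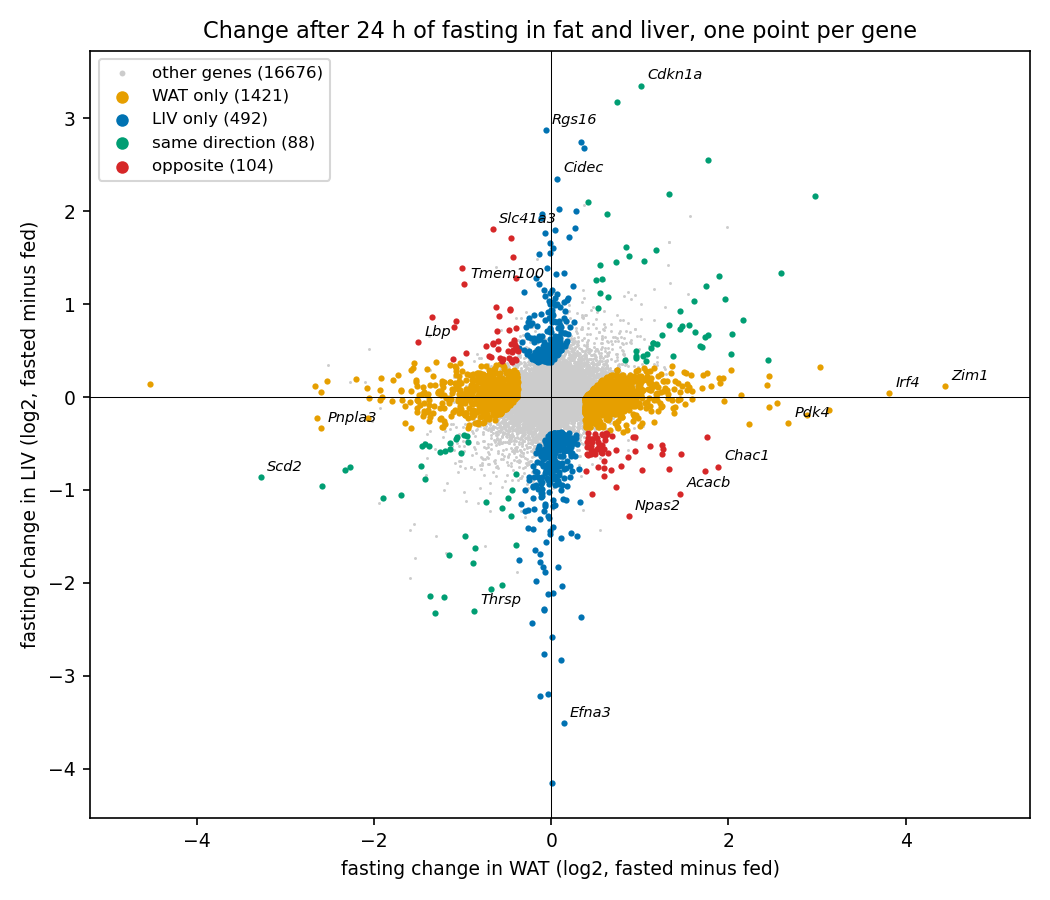
Fasting change in WAT (horizontal axis, log2) against the change in LIV (vertical axis, log2) for 18781 genes, 1 point each. The 104 genes called in opposite directions lie at the upper left and lower right, the 1421 genes called in WAT only along the horizontal axis and the 492 called in LIV only along the vertical axis.

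Of the 104 genes with opposite changes, 61 rose in WAT and fell in LIV, with a median of 0.583 in WAT and -0.561 in LIV. The other 43 fell in WAT and rose in LIV, with medians of -0.546 and 0.57. The choice of members fixes these directions. In 67 of the 104 the fasted and fed arrays did not overlap in either tissue, against 6.17% of all genes, a share that the choice of members raises, and 103 lay above the background level in both tissues. Leaving out each of the 19 arrays in turn kept 59 of the 104 in the class every time.

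Chac1, Inmt and Acacb had the largest differences among the genes that rose in WAT and fell in LIV. Chac1, which breaks down glutathione and is a target of the amino acid stress factor Atf4, read 5.88, 6.39, 6.19, 6.21 and 6.56 in the fed WAT arrays and 8.08, 8.08, 8.15, 8.48 and 7.87 in the fasted ones (log2 values of the arrays). In LIV it read 5.47, 6.11, 5.73 and 6.18 fed and 5.35, 5.17, 4.95, 5.16 and 4.99 fasted. The arrays were apart in both tissues, with a 3.69-fold rise in WAT (log2 change 1.88 ± 0.15, SE) and a 1.68-fold fall in LIV (-0.75 ± 0.16), and the difference of 2.63 ± 0.23 had an adjusted p of 3.39e-09. Slc7a8, an exchanger of neutral amino acids, read 9.18, 9.23, 9.12, 9.38 and 9.23 in fed and 10.05, 10.21, 10.05, 10.63 and 10.33 in fasted WAT, against 6.06, 6.18, 6.32 and 6.40 in fed and 5.59, 5.33, 5.25, 5.33 and 5.79 in fasted LIV. Its change was 1.02 ± 0.11 in WAT and -0.78 ± 0.12 in LIV (adjusted p of the difference 6.44e-09). The taurine transporter Slc6a6 rose by 1.25 ± 0.09 in WAT and fell by 0.52 ± 0.10 in LIV, without overlap of the arrays in either tissue.

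Acacb makes malonyl-CoA at the mitochondrion, where malonyl-CoA blocks the entry of fatty acids through Cpt1. It read 8.98, 9.32, 9.44, 8.93 and 9.00 in fed and 10.71, 10.31, 10.56, 10.83 and 10.53 in fasted WAT, a 2.74-fold rise (1.46 ± 0.11). In LIV it read 9.13, 9.12, 8.85 and 9.16 fed and 7.79, 7.89, 7.89, 8.25 and 8.32 fasted, a 2.05-fold fall (-1.04 ± 0.12), and the difference was 2.49 ± 0.16 (adjusted p 1.89e-11). The 2 tissues thus lay at about the same level when fed and on either side of it when fasted. Its relative Acaca, the cytosolic enzyme of fatty acid synthesis, fell by 0.77 ± 0.16 in WAT and by 0.66 ± 0.17 in LIV.

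Npas2, a partner of Arntl in the circadian clock, read 7.44, 8.41, 8.02, 7.75 and 7.74 in fed and 8.93, 8.71, 8.49, 8.91 and 8.69 in fasted WAT, and 7.42, 8.47, 7.79 and 7.76 in fed and 7.24, 6.59, 6.33, 5.64 and 7.10 in fasted LIV. Fasted WAT lay above and fasted LIV below every fed array of the tissue that was used. The changes were 0.88 ± 0.22 and -1.28 ± 0.24 (adjusted p of the difference 2.25e-05). The growth factor receptor Fgfr3 rose by 1.46 ± 0.12 in WAT and fell by 0.61 ± 0.12 in LIV. Enzymes of xenobiotic and amine metabolism were among them: Inmt, an amine N-methyltransferase, rose by 1.73 ± 0.16 in WAT and fell by 0.80 ± 0.16 in LIV, and the aldehyde oxidase Aox3 rose by 1.25 ± 0.09 in WAT and fell by 0.61 ± 0.09 in LIV. The ubiquitin ligase Rnf125 rose by 1.26 ± 0.12 in WAT and fell by 0.56 ± 0.13 in LIV and the interferon-inducible Ifi205 rose by 0.74 ± 0.14 in WAT and fell by 0.97 ± 0.15 in LIV. For these 10 genes, from Chac1 to Ifi205 and without Acaca, the arrays used of fed and fasted mice were apart in both tissues. The left-out fed LIV 4 lay within the fasted LIV range for Npas2 (7.16) and Ifi205 (4.65).

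Further genes of this direction, named after their values were seen except Hmox1 and Alas2, take part in cAMP and hormone signalling and in heme metabolism. The cAMP-induced kinase Sik1 rose by 0.87 ± 0.12 in WAT and fell by 0.64 ± 0.13 in LIV, the cAMP-responsive repressor Crem rose by 0.56 ± 0.13 in WAT and fell by 0.59 ± 0.14 in LIV, and the adiponectin receptor Adipor2 rose by 0.58 ± 0.06 in WAT and fell by 0.40 ± 0.07 in LIV. Crem was not called in LIV with all 30 arrays (log2 -0.43, adjusted p 0.0697). Adipor2 was not called in LIV without fed LIV 5 (log2 -0.37, adjusted p 0.000634). Hmox1, which degrades heme, rose by 0.57 ± 0.12 in WAT and fell by 0.56 ± 0.13 in LIV. Genes known from red blood cell precursors were among them: Alas2, the erythroid enzyme that starts heme synthesis, rose by 0.73 ± 0.12 in WAT and fell by 0.57 ± 0.13 in LIV, the mitochondrial iron importer Slc25a37 rose by 0.67 ± 0.10 in WAT and fell by 0.79 ± 0.10 in LIV, and the carbonic anhydrase Car1 rose by 0.60 ± 0.16 in WAT and fell by 0.85 ± 0.17 in LIV. The summed level of the 3 erythroid markers measured, Alas2 included, was 167 to 231 array units in fed and 234 to 332 in fasted WAT, and 708 to 799 in fed and 419 to 547 in fasted LIV. Alas2 was the 1 marker called in the difference, and the other 2 were not called. The median change of the 3 was 0.264 in WAT and -0.109 in LIV. The sum holds Alas2, which was already chosen for its opposite change, so it is no separate evidence. The part of red cells in these results was not tested.

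Slc41a3 and 2010003K11Rik had the largest differences among the genes that fell in WAT and rose in LIV. Slc41a3, a magnesium transporter of mitochondria, read 7.37, 7.33, 7.41, 7.51 and 7.38 in fed and 6.41, 6.85, 6.60, 6.67 and 7.15 in fasted WAT, and 5.37, 5.75, 5.74 and 5.48 in fed and 7.40, 7.62, 7.27, 7.58 and 7.08 in fasted LIV. Fed WAT and fasted LIV shared a range, fasted WAT lay mostly below it and fed LIV below all the others. The change was -0.66 ± 0.11 in WAT and 1.81 ± 0.12 in LIV, a difference of -2.47 ± 0.16 (adjusted p 2.37e-11). The small GTPase Rab30, a Golgi protein, read 6.43, 6.61, 6.47, 6.50 and 6.38 in fed and 5.84, 6.07, 6.01, 6.08 and 6.11 in fasted WAT, against 6.91, 6.42, 6.31 and 6.85 in fed and 8.07, 8.46, 8.07, 8.71 and 8.37 in fasted LIV. It fell by 0.46 ± 0.11 in WAT and rose by 1.71 ± 0.12 in LIV, which was 3.28-fold, and no groups of the same tissue overlapped.

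Lbp, a secreted protein that binds bacterial lipopolysaccharide, read 11.14, 10.94, 10.85, 11.14 and 10.90 in fed and 9.20, 9.95, 9.75, 8.57 and 10.01 in fasted WAT, and 10.72, 10.53, 10.45 and 10.78 in fed and 11.21, 11.25, 11.13, 11.12 and 11.34 in fasted LIV. The fall in WAT (-1.5 ± 0.18) was larger than the rise in LIV (0.59 ± 0.19, adjusted p 0.039). Lbp was not called in LIV without any 1 of fed LIV 1, 2 or 3 or fasted LIV 1, 2, 3 or 5 (log2 0.54 to 0.63, adjusted p 0.0529 to 0.105). Lbp was likewise not called in LIV with the 19 arrays alone or without variance moderation (log2 0.59, adjusted p 0.0606 to 0.0622). Map2k6, an activator of p38 kinase, read 6.16, 6.14, 6.08, 6.20 and 5.68 in fed and 5.11, 4.77, 4.87, 5.08 and 4.94 in fasted WAT, and 6.48, 6.36, 6.26 and 6.25 in fed and 6.97, 7.07, 7.06, 7.17 and 7.17 in fasted LIV. It fell by 1.1 ± 0.10 in WAT and rose by 0.75 ± 0.10 in LIV. Tmem100, a membrane protein of endothelium, fell by 0.98 ± 0.13 in WAT and rose by 1.21 ± 0.14 in LIV, the calcium channel subunit gene Cacng7 fell by 1.07 ± 0.12 in WAT and rose by 0.81 ± 0.12 in LIV, and the cell surface proteoglycan Gpc1 fell by 0.59 ± 0.10 in WAT and rose by 0.88 ± 0.11 in LIV. Spryd3 fell by 0.62 ± 0.10 in WAT and rose by 0.97 ± 0.11 in LIV, 2010003K11Rik fell by 1.01 ± 0.15 in WAT and rose by 1.39 ± 0.16 in LIV, and 1810055G02Rik fell by 0.40 ± 0.08 in WAT and rose by 1.28 ± 0.09 in LIV. 1810055G02Rik was not called in WAT without any 1 of fed WAT 3 or fasted WAT 4 (log2 -0.36 to -0.35, adjusted p 0.00247 to 0.00261). 1810055G02Rik was likewise not called in WAT with 30 weighted arrays (log2 -0.38, adjusted p 0.000415). In all 10 the arrays were apart in both tissues.

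Some genes of lipid and glucose metabolism belonged to the same class. Slc37a4, which carries glucose 6-phosphate into the endoplasmic reticulum for the last step of glucose release, read 7.70, 7.73, 7.81, 7.59 and 7.62 in fed and 7.15, 7.31, 7.30, 7.06 and 7.33 in fasted WAT, and 10.44, 10.28, 10.30 and 10.29 in fed and 11.24, 11.18, 11.25, 11.36 and 11.35 in fasted LIV. Neither pair of groups overlapped, and the difference of -1.41 ± 0.09 had an adjusted p of 7.69e-12. Gpat3, an enzyme of the first step of glycerolipid synthesis, changed by -0.43 ± 0.16 in WAT (adjusted p 0.0453) and 1.51 ± 0.17 in LIV. Gpat3 was not called in WAT without any 1 of fed WAT 1, 2, 3 or 5, fed LIV 2, 3 or 5, fasted WAT 2, 3 or 5 or fasted LIV 4 (log2 -0.45 to -0.34, adjusted p 0.05 to 0.149). Gpat3 was likewise not called in WAT with all 30 arrays, with fasted SM 1 left out in place of fasted SM 5 or without variance moderation (log2 -0.43, adjusted p 0.056 to 0.0676). G0s2, an inhibitor of the triglyceride lipase Pnpla2, fell by 1.35 ± 0.27 in WAT and rose by 0.86 ± 0.28 in LIV (adjusted p in LIV 0.0437). G0s2 was not called in LIV without any 1 of fed LIV 1, 2 or 5 or fasted LIV 2, 3 or 4 (log2 0.61 to 0.89, adjusted p 0.0618 to 0.18). G0s2 was likewise not called in LIV with all 30 arrays, with the 19 arrays alone, with fasted SM 1 left out in place of fasted SM 5, with 30 weighted arrays or without variance moderation (log2 0.53 to 0.86, adjusted p 0.0513 to 0.337).

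Decr1, an enzyme that prepares unsaturated fatty acids for oxidation, fell by 0.40 ± 0.06 in WAT and rose by 0.54 ± 0.06 in LIV. Decr1 was not called in WAT without any 1 of fasted WAT 1 or 3 (log2 -0.38 to -0.37, adjusted p 6.61e-05 to 7.49e-05). Gpd2, the mitochondrial glycerol 3-phosphate dehydrogenase, fell by 1.11 ± 0.11 in WAT and rose by 0.41 ± 0.11 in LIV. Gpd2 was not called in LIV without any 1 of fed LIV 3 or fasted LIV 5 (log2 0.35 to 0.37, adjusted p 0.0372 to 0.0575). Gja1, the gap junction protein connexin 43, fell by 0.42 ± 0.10 in WAT and rose by 0.61 ± 0.11 in LIV. Gja1 was not called in WAT without fed WAT 3 (log2 -0.31, adjusted p 0.0136). Gja1 was likewise not called in WAT with 30 weighted arrays (log2 -0.38, adjusted p 0.00328). Bdh2, a short-chain dehydrogenase of the ketone body list, went the other way and rose by 0.47 ± 0.15 in WAT and fell by 1.04 ± 0.16 in LIV. Bdh2 was not called in WAT without any 1 of fed WAT 1 or 2 or fasted WAT 3, 4 or 5 (log2 0.39 to 0.42, adjusted p 0.052 to 0.0662). Trp53inp2, which takes part in autophagy, fell by 0.70 ± 0.10 in WAT and rose by 0.44 ± 0.11 in LIV. Rrm2, the ribonucleotide reductase subunit of dividing cells, fell by 0.48 ± 0.12 in WAT and rose by 0.72 ± 0.13 in LIV, and the endoplasmic reticulum protein Creld2 fell by 0.45 ± 0.13 in WAT and rose by 0.57 ± 0.14 in LIV.

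**Figure D2:**
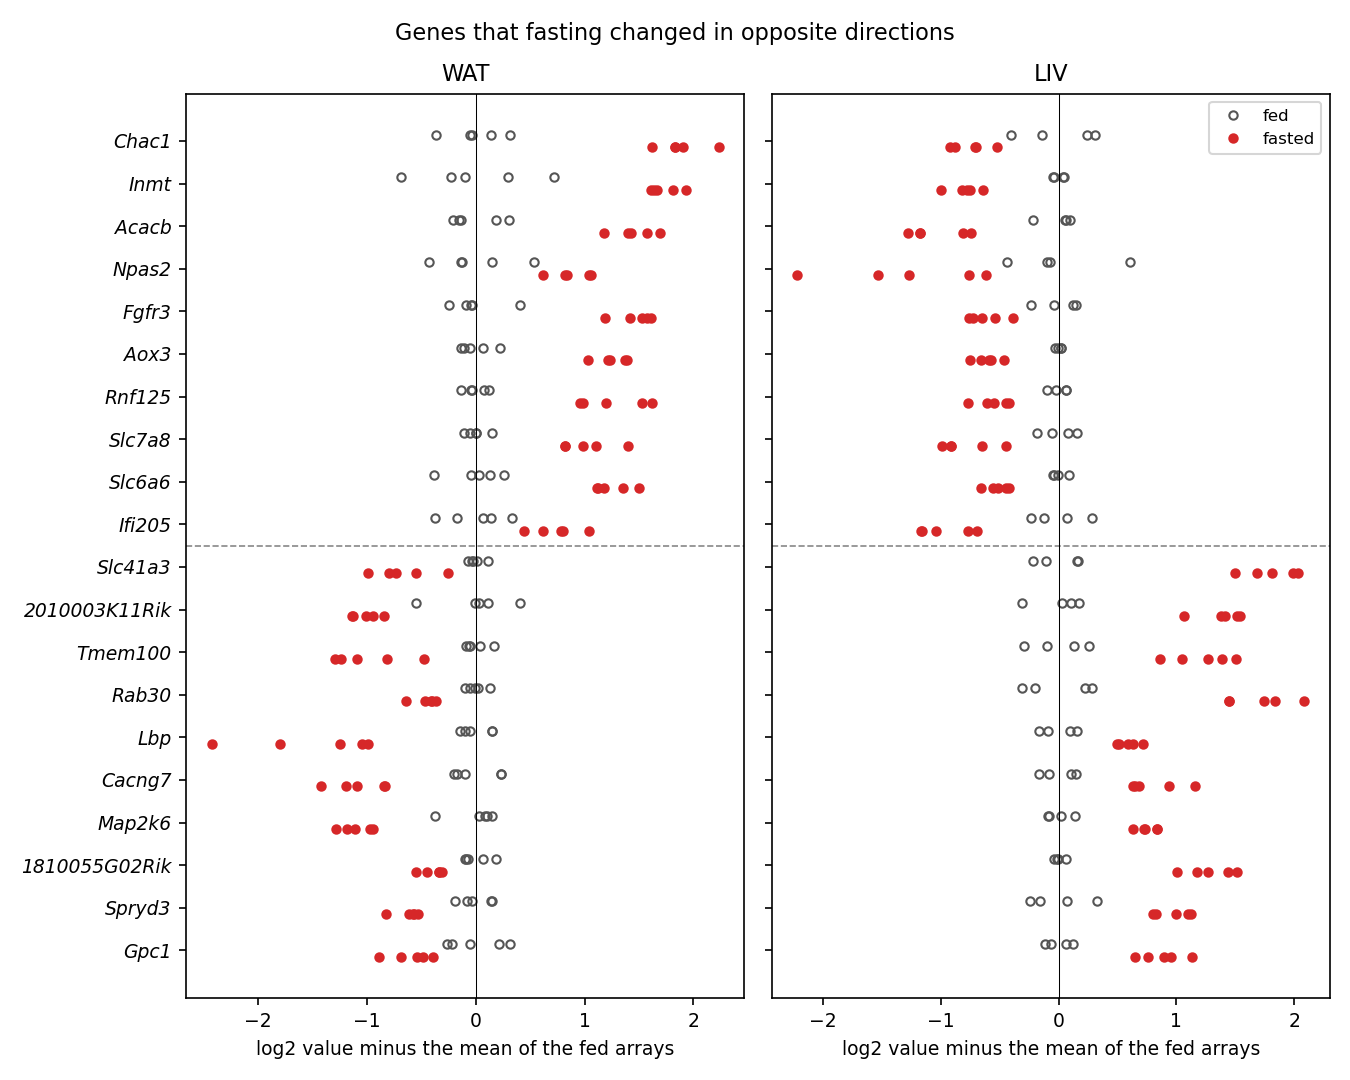
Log2 values of each fed (open) and fasted (filled) array, minus the mean of the fed arrays of the tissue, for the 10 genes that rose in WAT and fell in LIV with the largest differences (above the dashed line) and the 10 that fell in WAT and rose in LIV (below it). Fed and fasted arrays are apart in both panels for all 20 genes, which were chosen for that.

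The promoters of the genes with opposite changes were searched on both strands for 5 short motifs, in the window from 250 bases before to 50 after each start site (RefSeq, GRCm38.p6). A gene with several promoters counted as holding a motif if any of them did. A promoter was at hand for 39 of the 61 genes that rose in WAT and 31 of the 43 that fell. The E-box CACGTG, the site of clock factors and of Srebf1 and Mlxipl relatives, was in 5 of the 39 (12.8%) and in 2 of the 31 (6.45%), against 8.09% of 27025 genes. The cAMP response element TGACGTCA was in 0 of the 39 and 1 of the 31, against 2.03%, and the FoxO motif GTAAACA in 2 and 0, against 4.05%. The C/EBP-ATF motif TGATGNAAT was in 1 and 0 (1.08% of all genes), and the glucocorticoid receptor motif TGTTCT in 6 and 4 (21.3% of all genes). No motif contains another. A match is only a run of letters.

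The 3 stretches of 100 bases below show promoters of genes described here that hold a motif, with the motif in capitals. Slc41a3 had the largest difference of the genes that fell in WAT and rose in LIV, Trp53inp2 was the 1 such gene with the cAMP motif, and Ciart is a repressor of the clock that rose in both tissues but more in LIV.
Slc41a3, chr6:90618996-90619095, plus strand: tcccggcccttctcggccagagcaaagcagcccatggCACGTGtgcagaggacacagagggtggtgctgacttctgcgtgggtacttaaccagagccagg
Trp53inp2, chr2:155381756-155381855, plus strand: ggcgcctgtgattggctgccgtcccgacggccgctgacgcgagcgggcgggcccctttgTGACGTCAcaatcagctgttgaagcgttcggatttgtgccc
Ciart, chr3:95882237-95882336, minus strand: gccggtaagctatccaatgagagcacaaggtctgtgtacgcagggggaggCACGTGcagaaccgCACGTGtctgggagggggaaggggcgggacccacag
Each start site named here is that of the promoter shown, which was picked for holding the motif and need not be the gene's first. The E-box of Slc41a3 starts 213 bases before its start site, and that stretch lies inside the gene (chr6:90604730-90646412). The cAMP motif of Trp53inp2 starts 41 bases before its start site, and that stretch spans the first base of the gene (chr2:155381811). Ciart had 3 E-boxes before its start site, the nearest starting 44 bases away, and 2 of them lie in the stretch shown.

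The lists of genes by pathway show where the fasting programme of the tissues divided. The lists were chosen with earlier results of these data known, so their counts are a description, read against the 16.1% of all genes that differed.

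**Figure D3:**
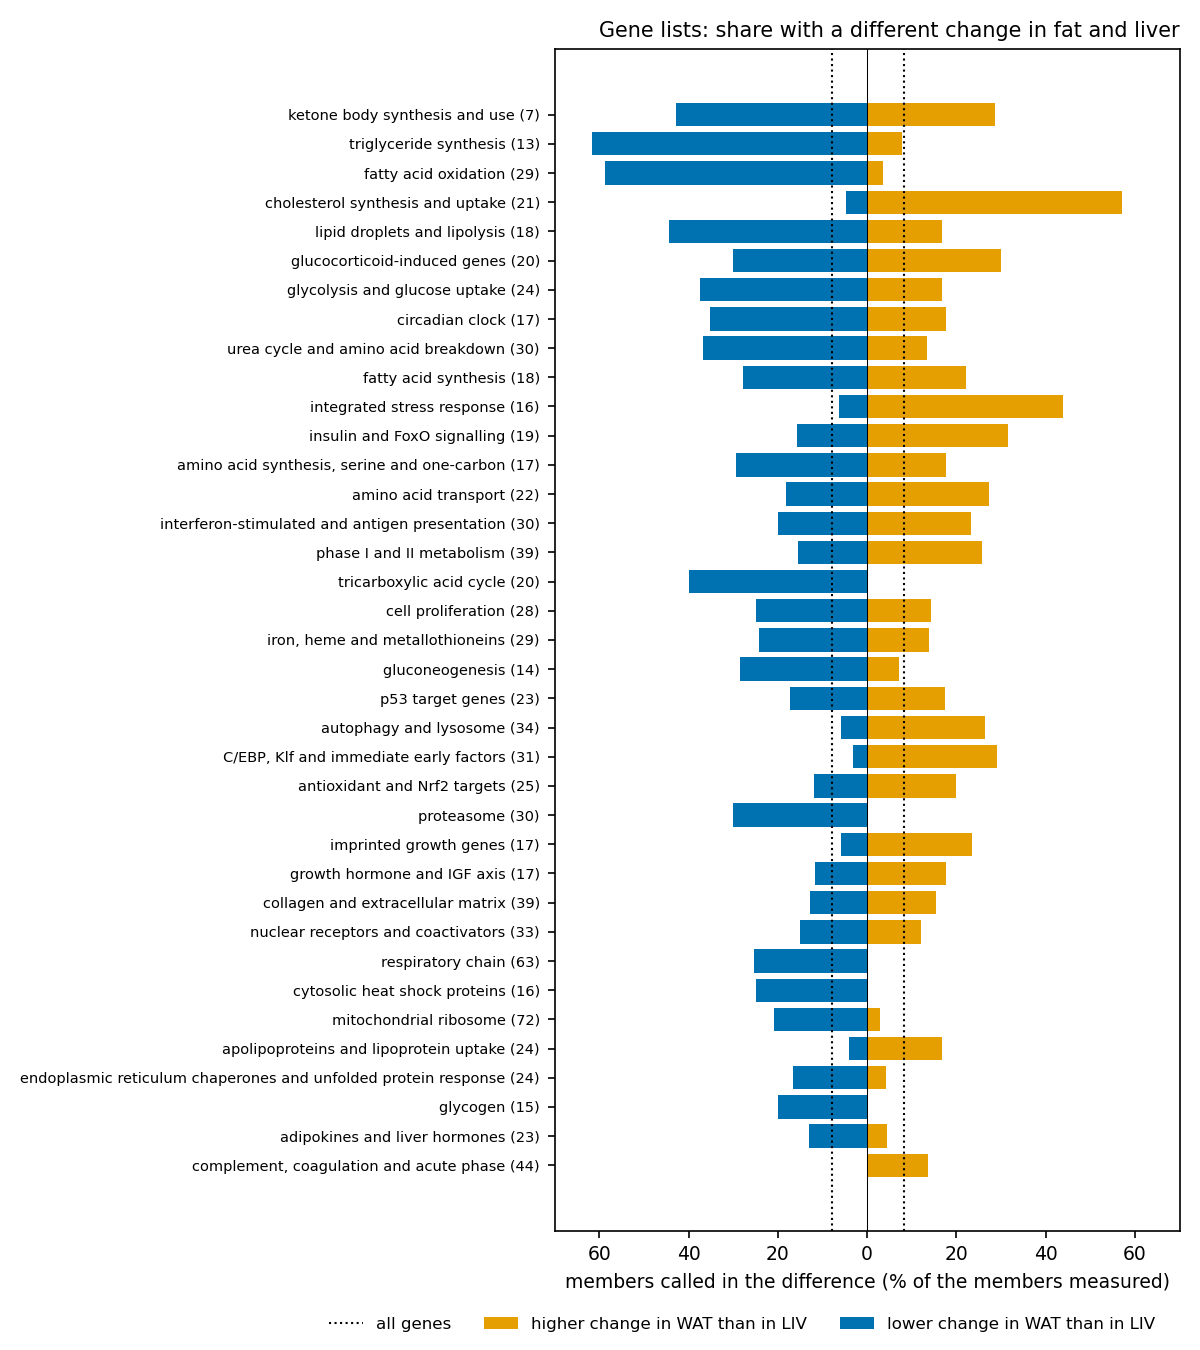
Members called in the difference of the fasting changes, in percent of the members measured (number in brackets), for 37 gene lists. Bars to the right are members with the higher change in WAT, bars to the left members with the lower change in WAT, and the dotted lines mark all genes (8.19% and 7.91%).

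Genes of fatty acid oxidation rose mostly in LIV. Of 29 measured, 18 rose in LIV and 0 fell, whereas in WAT 3 rose and 4 fell. The difference was called for 18, of which 17 had the lower change in WAT (median difference -0.519, all genes -0.0251). Acot1, a cytosolic acyl-CoA thioesterase induced by Ppara and so like Acot2 in sequence that probes may read both, read 6.47, 6.67, 6.29 and 6.59 in fed and 8.24, 8.68, 8.47, 8.68 and 8.08 in fasted LIV, a 3.8-fold rise, and 4.50, 4.41, 4.41, 4.62 and 4.27 in fed and 4.26, 4.37, 4.09, 4.51 and 4.41 in fasted WAT, where the arrays overlapped (-0.11 ± 0.12). Its mitochondrial relative Acot2 rose by 1.15 ± 0.11 in LIV (-0.09 ± 0.11 in WAT, not called). Cyp4a14, which oxidises the far end of fatty acids, rose by 1.07 ± 0.18 in LIV and lay below background in WAT. Fgf21, a fasting hormone of liver, rose by 1.07 ± 0.13 in LIV (0.19 ± 0.13 in WAT, not called).

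The gatekeepers of mitochondrial oxidation followed this pattern. Cpt1a, which passes fatty acids to carnitine, rose by 0.65 ± 0.08 in LIV. Its change in WAT was -0.25 ± 0.08, with an adjusted p of 0.0193 but under 1.3-fold. The medium-chain dehydrogenase Acadm rose by 0.54 ± 0.07 in LIV (-0.29 ± 0.07 in WAT, not called), and Cpt2 rose by 0.44 ± 0.07 in LIV (-0.15 ± 0.06 in WAT, not called). The 1 member with the higher change in WAT was Ucp3, a mitochondrial carrier, which rose by 1.01 ± 0.14 in WAT and was not above background in LIV.

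Enzymes that build and proteins that coat triglyceride stores also divided. In triglyceride synthesis 6 of 13 fell in WAT and 2 rose, while 5 rose in LIV and 0 fell. The difference was called for 9, 8 with the lower change in WAT. Dgat2, which makes the last bond of triglyceride, fell by 1.65 ± 0.20 in WAT (-0.09 ± 0.21 in LIV, not called), Agpat2 fell by 1.01 ± 0.18 in WAT (-0.06 ± 0.19 in LIV, not called), and Gpd1, which makes glycerol 3-phosphate, fell by 1.37 ± 0.08 in WAT (0.29 ± 0.09 in LIV, not called) with an adjusted p in LIV of 0.0307 but under 1.3-fold. Gpam, the mitochondrial first step, ran the other way and rose by 0.54 ± 0.11 in WAT (-0.32 ± 0.11 in LIV, not called). Lpin1, a phosphatidate phosphatase and nuclear coactivator, rose in both but more in LIV (0.87 ± 0.11 and 1.52 ± 0.12).

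Of 18 genes of lipid droplets and lipolysis, 9 rose in LIV and 1 fell, and 11 differed, 8 of them lower in WAT. Cidec, which fuses lipid droplets, read 5.50, 5.06, 5.11 and 5.48 in fed and 7.69, 7.49, 7.90, 8.0 and 7.09 in fasted LIV, and 12.53, 12.47, 12.40, 12.39 and 12.60 in fed and 12.75, 12.51, 12.50, 12.56 and 12.37 in fasted WAT. The liver value rose 5.1-fold (2.35 ± 0.30) and stayed far below that of WAT, where the fasting change was 0.06 ± 0.28. The droplet coat Plin4 rose by 1.82 ± 0.14 in LIV (0.27 ± 0.13 in WAT, not called). Pnpla3, a lipase relative of the lipogenic programme, read 11.47, 11.56, 11.53, 11.36 and 11.55 in fed and 9.02, 8.99, 8.99, 8.01 and 9.49 in fasted WAT, a 6.03-fold fall. Its fasting change in LIV was -0.33 ± 0.25 (95% interval -0.84 to 0.17). Mgll, which completes lipolysis, rose by 0.85 ± 0.12 in LIV (-0.34 ± 0.12 in WAT, not called). Plin5 rose in both (1.04 ± 0.09 in WAT and 1.46 ± 0.09 in LIV), and Lpl, which frees fatty acids from lipoproteins, fell by 0.85 ± 0.13 in LIV (0.04 ± 0.12 in WAT, not called). Plin5 did not differ by the test without fed WAT 2 (log2 -0.38, adjusted p 0.0477). Plin5 was likewise not called in the difference with all 30 arrays (log2 -0.34, adjusted p 0.103).

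Lipid synthesis fell in both tissues and differed mostly in size. Of 21 genes of cholesterol synthesis and uptake, 17 fell in LIV and 15 in WAT. The difference was called for 13, and 12 of these fell further in LIV or fell there alone (median difference 0.555). Hmgcs1, which makes the first committed precursor, fell by 1.52 ± 0.18 in LIV (0.11 ± 0.17 in WAT, not called), and Fdft1, which makes squalene, fell by 1.28 ± 0.11 in LIV (-0.04 ± 0.11 in WAT, not called). Cyp51 fell by 1.89 ± 0.20 in LIV (-0.38 ± 0.19 in WAT, not called), Mvd fell by 2.06 ± 0.16 in LIV and by 0.68 ± 0.15 in WAT, Idi1 fell by 2.14 ± 0.15 in LIV and by 1.36 ± 0.14 in WAT, and Sqle fell by 2.32 ± 0.23 in LIV and by 1.32 ± 0.21 in WAT. Sqle did not differ by the test without fed WAT 4 (log2 0.90, adjusted p 0.0511). Pmvk fell by 1.59 ± 0.15 in LIV and by 0.40 ± 0.14 in WAT. Pmvk was not called in WAT without any 1 of fed WAT 1, 2 or 3 or fasted WAT 2, 3 or 5 (log2 -0.40 to -0.31, adjusted p 0.0627 to 0.142). Pmvk was likewise not called in WAT without variance moderation (log2 -0.40, adjusted p 0.0624).

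In fatty acid synthesis 12 of 18 genes fell in each tissue, and 9 differed, 4 higher and 5 lower in WAT. Scd2, a desaturase, read 11.45, 11.32, 10.96, 10.55 and 11.23 in fed and 7.77, 7.78, 7.69, 7.83 and 8.03 in fasted WAT, a 9.7-fold fall, and 7.13, 7.46, 6.87 and 7.10 in fed and 6.35, 6.44, 6.41, 5.88 and 6.32 in fasted LIV, a 1.81-fold fall. The elongase Elovl6 also fell more in WAT (-2.58 ± 0.24 and -0.95 ± 0.26). Thrsp, a lipogenic nuclear protein, fell more in LIV (-0.87 ± 0.25 and -2.30 ± 0.26), and Aacs, which activates acetoacetate for lipid synthesis, fell by 2.44 ± 0.19 in LIV (-0.21 ± 0.18 in WAT, not called). For Fasn, the fatty acid synthase, the changes were -1.59 ± 0.26 and -1.43 ± 0.28, and the 95% interval of the difference was -0.95 to 0.62. For Acly, which supplies its acetyl-CoA, they were -1.94 ± 0.20 and -1.14 ± 0.22 with an interval of -1.41 to -0.19 and an adjusted p of 0.0629, over the threshold.

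Genes of glucose use changed mainly in WAT. Among the 24 members of the glycolysis list, glucose transporters included, 10 fell and 4 rose in WAT, 2 fell and 0 rose in LIV, and 11 met the definition of WAT only. Pdk4, the kinase that shuts off pyruvate oxidation, read 8.85, 9.22, 9.00, 9.19 and 8.94 in fed and 11.73, 11.85, 11.81, 11.64 and 11.55 in fasted WAT, a 6.37-fold rise. In LIV it read 8.72, 8.52, 8.44 and 8.57 fed and 7.90, 8.74, 7.98, 8.27 and 8.53 fasted, with overlap (LIV change -0.28 ± 0.13, adjusted p 0.154). Pdk2 rose by 1.5 ± 0.06 in WAT (-0.07 ± 0.06 in LIV, not called). The insulin-responsive glucose transporter Slc2a4 fell by 1.15 ± 0.08 in WAT and was not above background in LIV, while the general transporter Slc2a1, named after its value was seen, rose by 0.46 ± 0.12 in WAT (-0.17 ± 0.12 in LIV, not called). The glycolytic enzyme Tpi1 fell by 1.45 ± 0.09 in WAT (0.11 ± 0.10 in LIV, not called).

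**Figure D4:**
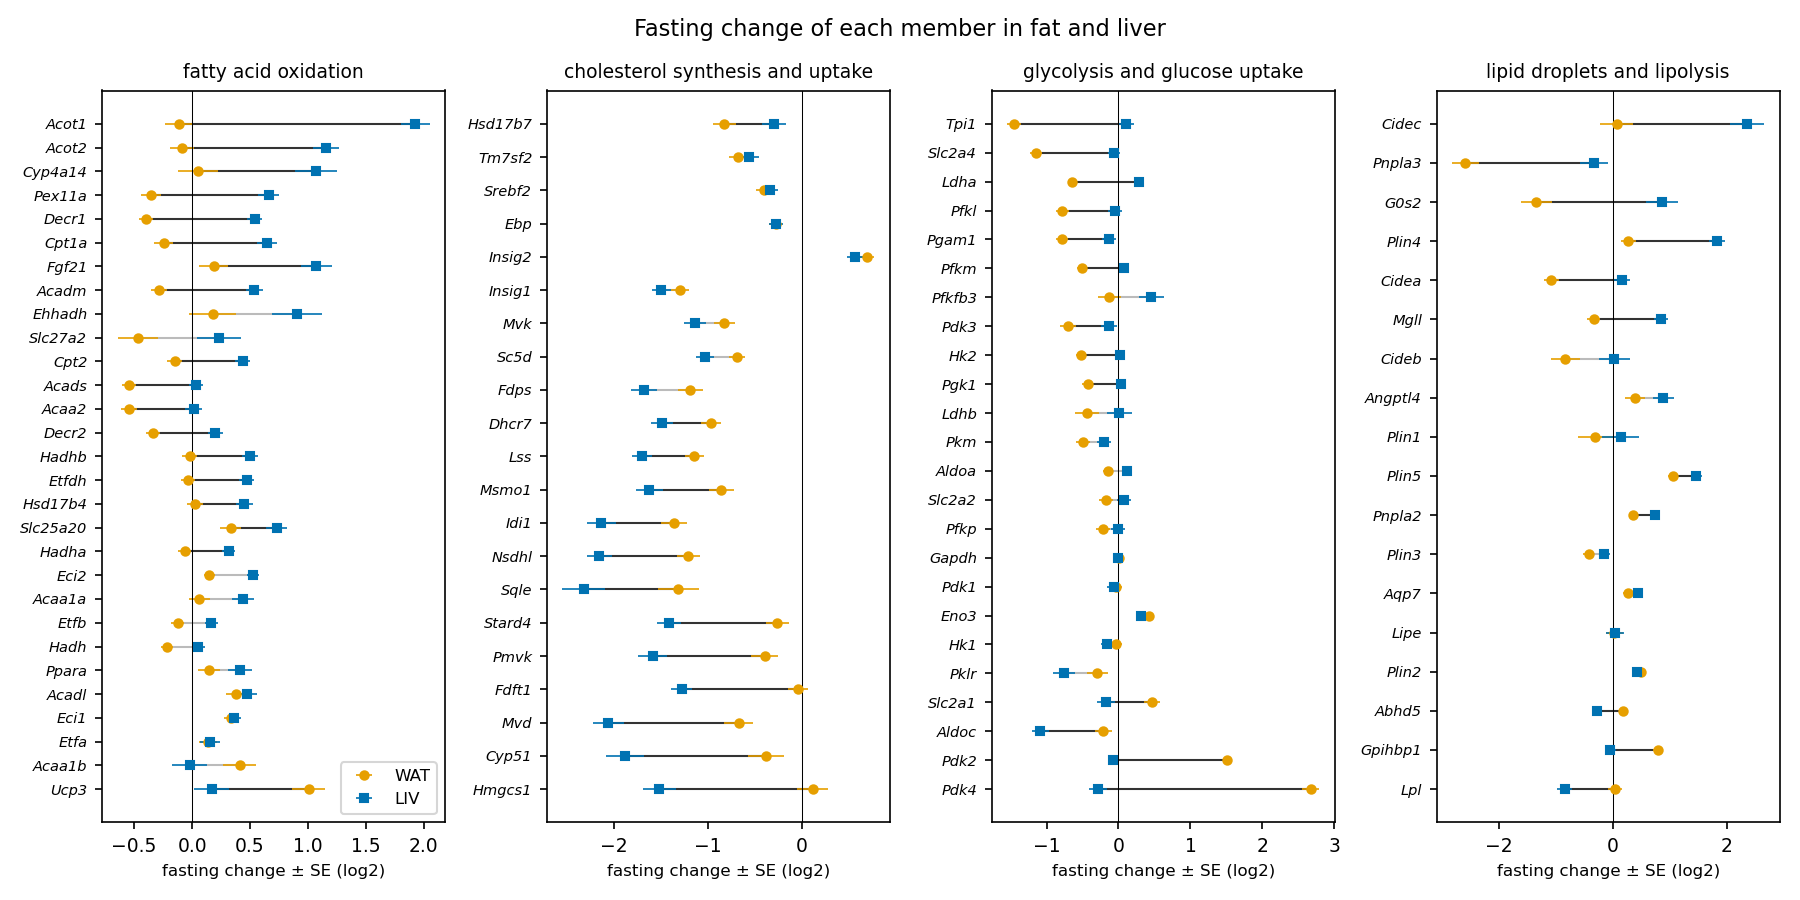
Fasting change (log2, fasted minus fed, ± SE) of every measured member of 4 lists in WAT (circles) and LIV (squares), ordered by the difference; dark connecting lines mark members whose changes differed by the test. Of the members that differed by the test, 17 of fatty acid oxidation lie further to the right in LIV and 12 of cholesterol synthesis further to the left in LIV.

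Of 15 glycogen genes 5 fell in WAT, 0 were called in LIV and 3 differed, a share close to the 16.1% of all genes. Only 7.55% of all genes were called in LIV, so 0 calls among 15 members do not set the list apart there. The glycogen synthase Gys2 fell by 1.58 ± 0.23 in WAT (0.29 ± 0.25 in LIV, not called), Ppp1r3b, which brings phosphatase to glycogen, fell by 0.53 ± 0.10 in WAT (0.13 ± 0.11 in LIV, not called), and Pgm1 fell by 0.47 ± 0.07 in WAT (0.04 ± 0.07 in LIV, not called). Among 14 genes of gluconeogenesis 4 rose in LIV and 3 in WAT, 5 fell in WAT, and 5 differed. Gpt, the alanine aminotransferase, read 8.36, 8.46, 8.35, 8.08 and 8.51 in fed and 5.84, 5.91, 6.12, 5.63 and 5.66 in fasted WAT, a 5.73-fold fall. In LIV it read 9.37, 9.40, 9.27 and 9.34 fed and 9.72, 9.73, 9.86, 9.62 and 9.52 fasted, higher in every fasted array but by less than 1.3-fold (0.35 ± 0.10, adjusted p 0.0258). Pyruvate carboxylase (Pcx) fell by 0.39 ± 0.07 in WAT (0.28 ± 0.07 in LIV, not called), the latter under 1.3-fold. Pcx was not called in WAT without any 1 of fed WAT 2 or fasted WAT 2, 3 or 5 (log2 -0.36 to -0.35, adjusted p 0.000334 to 0.000445).

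Calls among mitochondrial genes lay mostly in WAT. In the respiratory chain 11 of 63 genes fell in WAT, 0 rose, and 0 were called in LIV, and all 16 that differed were lower in WAT (median change -0.236 in WAT and 0.0191 in LIV). Ndufb3 of complex I fell by 1.05 ± 0.09 in WAT (0.12 ± 0.10 in LIV, not called), Cox7a1 of complex IV fell by 0.99 ± 0.08 in WAT (-0.17 ± 0.08 in LIV, not called), and Cox8b, an isoform of complex IV of muscle and brown fat, fell by 1.07 ± 0.11 in WAT (0.28 ± 0.11 in LIV, not called). In the tricarboxylic acid cycle 7 of 20 fell in WAT, 1 rose in LIV, and 8 differed, all lower in WAT. Dld, shared by the large dehydrogenase complexes, fell by 0.75 ± 0.07 in WAT (0.07 ± 0.08 in LIV, not called), Pdhb of the pyruvate dehydrogenase fell by 0.76 ± 0.11 in WAT (0.09 ± 0.11 in LIV, not called), and Idh3a fell by 0.54 ± 0.08 in WAT (0.27 ± 0.09 in LIV, not called).

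Of 72 genes of the mitochondrial ribosome 12 fell and 2 rose in WAT, 0 were called in LIV, and 15 of the 17 that differed were lower in WAT. Mrpl49 fell by 0.66 ± 0.07 in WAT (-0.12 ± 0.07 in LIV, not called), Mrps25 fell by 0.51 ± 0.08 in WAT (0.10 ± 0.08 in LIV, not called), and Mrpl34 fell by 0.52 ± 0.08 in WAT (0.08 ± 0.08 in LIV, not called). The mitochondrial dicarboxylate carrier Slc25a10 read 10.76, 10.80, 10.74, 10.42 and 10.68 in fed and 7.88, 8.06, 8.31, 7.80 and 8.03 in fasted WAT, a 6.33-fold fall, and 10.88, 10.81, 10.76 and 10.73 in fed and 10.99, 11.02, 10.99, 10.69 and 10.89 in fasted LIV. Fed WAT and LIV thus gave like values for this gene, and only WAT moved.

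Protein quality genes differed with small changes in each tissue. Of 30 proteasome genes 4 fell in WAT and 1 rose in LIV, yet 9 differed, all lower in WAT. Psmd6 fell by 0.39 ± 0.07 in WAT (0.37 ± 0.07 in LIV, not called). The fasting changes of Psmc4 were -0.32 ± 0.04 in WAT and 0.19 ± 0.05 in LIV, neither called by itself. Those of Psmd1 were -0.35 ± 0.05 in WAT and 0.14 ± 0.06 in LIV, neither called by itself. Psmd6 was not called in WAT without any 1 of fed WAT 2 or 3 or fasted WAT 2 (log2 -0.38 to -0.34, adjusted p 0.000288 to 0.000409). Of 16 cytosolic heat shock genes 4 differed, all lower in WAT, among them Ahsa1, a cofactor of Hsp90, and Stip1, which links Hsp70 and Hsp90. The fasting changes of Ahsa1 were -0.24 ± 0.07 in WAT and 0.25 ± 0.08 in LIV, neither called by itself. Stip1 fell by 0.43 ± 0.09 in WAT (0.01 ± 0.09 in LIV, not called). Stip1 was not called in WAT without any 1 of fasted WAT 2 or 3 (log2 -0.37 to -0.36, adjusted p 0.00152). Hsp90aa1, another of the 4 heat shock genes, was not called in the difference with the 19 arrays alone (log2 -0.47, adjusted p 0.0597). Of 24 endoplasmic reticulum chaperone genes 5 differed (20.8% against 16.1%), 4 of them lower in WAT. Among these 5, Sdf2l1 and Dnajb9 were not called in the difference with the 19 arrays alone (adjusted p 0.0848 and 0.0879). Hsp90aa1, Sdf2l1 and Dnajb9 also lost this call without any 1 of several single arrays.

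Amino acid genes were split. Of 30 genes of the urea cycle and amino acid breakdown 15 differed, 11 with the lower change in WAT. Asl of the urea cycle rose by 0.76 ± 0.07 in LIV (-0.16 ± 0.06 in WAT, not called). Pcca, which clears propionyl-CoA, fell by 0.68 ± 0.06 in WAT (0.00 ± 0.06 in LIV, not called), and the branched-chain aminotransferase Bcat1 fell by 0.74 ± 0.10 in WAT, with LIV not above background. In the serine and one-carbon list 8 of 17 genes fell and 3 rose in WAT, while 2 rose in LIV. The enzymes of transsulfuration went apart within WAT: Cbs rose by 0.91 ± 0.14 in WAT (-0.06 ± 0.15 in LIV, not called), the next enzyme Cth fell by 1.04 ± 0.15 in WAT (0.23 ± 0.16 in LIV, not called), and Ahcy before them rose by 1.3 ± 0.08 in WAT (0.25 ± 0.08 in LIV, not called).

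Of 16 genes of the integrated stress response, the programme of Atf4, 5 rose and 1 fell in WAT, and 4 rose and 2 fell in LIV. The difference was called for 8, 7 of them with the higher change in WAT. Besides Chac1, Ppp1r15a, which restores translation, rose by 0.94 ± 0.09 in WAT (0.05 ± 0.09 in LIV, not called), the pseudokinase Trib3 rose by 0.95 ± 0.11 in WAT (0.28 ± 0.12 in LIV, not called), and the tRNA synthetase Cars fell by 0.73 ± 0.06 in LIV (0.11 ± 0.06 in WAT, not called). Among 22 amino acid transporters 7 rose and 4 fell in WAT and 1 rose and 2 fell in LIV. The glutamine transporter Slc38a3 fell by 1.45 ± 0.17 in WAT (-0.20 ± 0.19 in LIV, not called), and the neutral amino acid transporter Slc1a4 fell by 0.88 ± 0.12 in LIV (0.14 ± 0.12 in WAT, not called). Of 34 genes of autophagy and lysosome 11 differed, 9 higher in WAT, among them Gabarapl1, which rose by 0.76 ± 0.08 in WAT (0.02 ± 0.08 in LIV, not called), and the starting kinase Ulk1, which rose by 0.77 ± 0.08 in WAT (0.18 ± 0.08 in LIV, not called), while Map1lc3a fell by 0.50 ± 0.10 in WAT (0.37 ± 0.10 in LIV, not called).

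Regulators shared between the tissues sat beside regulators of one tissue. Of 20 glucocorticoid-induced genes 14 rose in WAT and 12 in LIV, with the highest median changes of the 37 lists (1.09 and 1.18), and 6 differed each way. Per1 rose in both (1.33 ± 0.13 and 1.66 ± 0.14), and the interval of its difference was -0.72 to 0.05. Zbtb16 (0.62 ± 0.11 and 1.97 ± 0.12) and Fkbp5 (1.77 ± 0.16 and 2.55 ± 0.17) rose more in LIV, and the metallothionein Mt2 rose by 1.72 ± 0.20 in LIV (0.20 ± 0.19 in WAT, not called). Fkbp5 did not differ by the test without fed LIV 2 (log2 -0.73, adjusted p 0.052). Sgk1, a kinase of the insulin pathway, rose by 1.5 ± 0.09 in WAT (0.27 ± 0.10 in LIV, not called).

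Of 19 genes of insulin and FoxO signalling 6 rose and 3 fell in WAT, and 1 rose in LIV. That 1 was Foxo1, which rose by 0.55 ± 0.06 in LIV (0.06 ± 0.06 in WAT, not called). The adaptor Grb10 rose by 0.95 ± 0.11 in WAT (-0.21 ± 0.12 in LIV, not called) and its relative Grb14, also an inhibitor of the insulin receptor, fell by 1.52 ± 0.20 in WAT (0.12 ± 0.22 in LIV, not called), so the pair moved in opposite directions within WAT. The regulatory subunit Pik3r1 fell by 0.76 ± 0.11 in WAT (0.10 ± 0.11 in LIV, not called). Of 17 circadian clock genes 9 differed. Ciart rose by 0.41 ± 0.15 in WAT and by 2.10 ± 0.16 in LIV, the repressor Bhlhe41 fell by 0.79 ± 0.16 in WAT (0.42 ± 0.17 in LIV, not called), the output factor Tef rose by 0.64 ± 0.13 in LIV (-0.23 ± 0.12 in WAT, not called), and its relative Hlf rose by 0.59 ± 0.13 in LIV (-0.08 ± 0.12 in WAT, not called). Ciart was not called in WAT without any 1 of fed WAT 1, 2 or 4 or fasted WAT 1, 3 or 4 (log2 0.35 to 0.40, adjusted p 0.0756 to 0.115). Ciart was likewise not called in WAT with all 30 arrays, with the 19 arrays alone, with fasted SM 1 left out in place of fasted SM 5, without variance moderation, with the mean of its probe sets or with cyclic loess (log2 0.34 to 0.41, adjusted p 0.0545 to 0.132).

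Among 31 C/EBP, Klf and immediate early factors 11 rose in WAT and 5 in LIV, and 9 of the 10 that differed were higher in WAT. Irf4, a transcription factor of adipocytes and immune cells, read 5.90, 6.13, 6.21, 6.23 and 6.24 in fed and 10.18, 9.75, 9.61, 11.03 and 9.22 in fasted WAT, a 14.1-fold rise. In LIV it read 3.82, 3.87, 4.09 and 4.42 fed and 4.11, 4.18, 3.92, 4.18 and 4.05 fasted, near the background level of 4.02. Maff rose by 1.25 ± 0.15 in WAT (-0.09 ± 0.16 in LIV, not called), and Myc rose by 1.00 ± 0.21 in WAT (-0.31 ± 0.22 in LIV, not called). Of 33 nuclear receptors and coactivators 9 differed. Nr4a1 fell by 1.56 ± 0.21 in LIV (-0.05 ± 0.20 in WAT, not called), and Rxrg fell by 1.03 ± 0.10 in WAT (-0.09 ± 0.11 in LIV, not called).

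Of the 1421 genes changed in WAT only, 719 rose and 702 fell. For 1013 of them the 95% interval of the LIV change lay within 1.3-fold either way, and 152 were not above background in LIV, where the arrays give no measure of a change. Zim1, an imprinted zinc finger gene, read 5.00, 4.65, 5.01, 5.90 and 5.15 in fed and 9.41, 9.21, 9.37, 10.14 and 9.80 in fasted WAT, a 21.8-fold rise, and 4.01, 3.83, 4.04 and 3.97 in fed and 4.08, 4.33, 4.21, 4.05 and 3.74 in fasted LIV. Its LIV values lay around the background level of 4.02. The FoxO target Depp1 read 6.52, 7.19, 7.42, 6.83 and 6.49 in fed and 9.84, 9.60, 9.69, 10.19 and 9.59 in fasted WAT, and 9.52, 9.66, 9.07 and 9.53 in fed and 9.58, 9.08, 9.20, 9.15 and 9.25 in fasted LIV, so fasted WAT reached the level that LIV had in both states. Thbs2, a matrix protein, rose by 3.03 ± 0.12 in WAT (0.32 ± 0.13 in LIV, not called), and Gprin3 rose by 2.54 ± 0.17 in WAT (-0.06 ± 0.18 in LIV, not called).

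Of the genes that fell in WAT only, Cdsn, known from the junctions of skin cells, fell 5.79-fold (-2.53 ± 0.21), Trabd2b, an inhibitor of Wnt proteins, 6.08-fold (-2.60 ± 0.14), the matrix protein Matn2 4.61-fold (-2.20 ± 0.16) and the apelin receptor Aplnr 4.22-fold (-2.08 ± 0.12). In LIV their fasting changes, none of them called, were 0.17 ± 0.23, 0.06 ± 0.14, 0.19 ± 0.17 and 0.10 ± 0.13. The LIV arrays used read 3.84 to 4.41 for Cdsn and 3.70 to 4.49 for Aplnr, around the background of 4.02. Apln, the ligand of Aplnr, fell by 1.22 ± 0.12 in WAT (-0.12 ± 0.13 in LIV, not called). Of 39 matrix genes 11 fell and 4 rose in WAT, among them Col15a1, which fell by 2.07 ± 0.17 in WAT (-0.22 ± 0.18 in LIV, not called), and Thbs1, which rose by 2.14 ± 0.18 in WAT (0.02 ± 0.19 in LIV, not called). The imprinted list held 4 genes that rose in WAT and 2 that rose in LIV of 17: Peg3 rose in both (2.60 ± 0.24 and 1.34 ± 0.26), and Peg10 rose by 1.38 ± 0.19 in WAT (0.08 ± 0.20 in LIV, not called). Leptin (Lep), made by adipocytes, fell by 1.93 ± 0.56 in WAT and was not above background in LIV, and its difference missed the threshold (adjusted p 0.134).

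Of the 492 genes changed in LIV only, 197 rose and 295 fell. The 95% interval of the WAT change lay within 1.3-fold either way for 372, and 140 were not above background in WAT. Rgs16, a brake on G protein signalling, read 6.00, 5.28, 5.20 and 5.57 in fed and 7.67, 8.26, 7.75, 8.89 and 9.32 in fasted LIV, a 7.3-fold rise, and 5.84, 5.85, 5.78, 5.70 and 5.76 in fed and 5.91, 5.50, 5.79, 5.73 and 5.69 in fasted WAT, with overlap. St3gal5, which makes the ganglioside GM3, rose by 1.54 ± 0.10 in LIV (-0.13 ± 0.10 in WAT, not called), and the acetylcholine receptor subunit Chrna2 rose by 1.55 ± 0.14 in LIV (-0.02 ± 0.13 in WAT, not called).

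Efna3, a ligand of Eph receptors, read 8.37, 8.31, 8.32 and 8.69 in fed and 5.12, 4.81, 4.97, 4.56 and 5.10 in fasted LIV, an 11.4-fold fall. In WAT it read 4.02, 4.05, 4.10, 4.15 and 4.01 fed and 4.08, 4.26, 4.25, 4.35 and 4.09 fasted, close to the background of 3.92. With the mean of its probe sets in place of the brightest, the fall of Efna3 in LIV was -1.85 (adjusted p 1.14e-14). Fabp5, a fatty acid binding protein of adipocytes and macrophages, read 7.82, 7.69, 7.15 and 8.05 in fed and 5.43, 5.41, 5.18, 5.28 and 5.24 in fasted LIV, and 8.70, 9.05, 8.82, 8.14 and 8.87 in fed and 9.45, 8.56, 8.93, 9.40 and 8.91 in fasted WAT, where fed and fasted arrays overlapped. Clec2h fell 7.1-fold (-2.83 ± 0.20), Chrna4 4.86-fold (-2.28 ± 0.20) and Rps23rg1, a copy of the ribosomal gene Rps23 whose probes may read both, 4.1-fold (-2.04 ± 0.18) in LIV. Their WAT changes, none of them called, were 0.11 ± 0.19, -0.09 ± 0.19 and 0.12 ± 0.17. The WAT arrays read 3.90 to 4.23, 3.93 to 4.45 and 3.98 to 4.40 for these genes, also close to the background of 3.92.

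**Figure D5:**
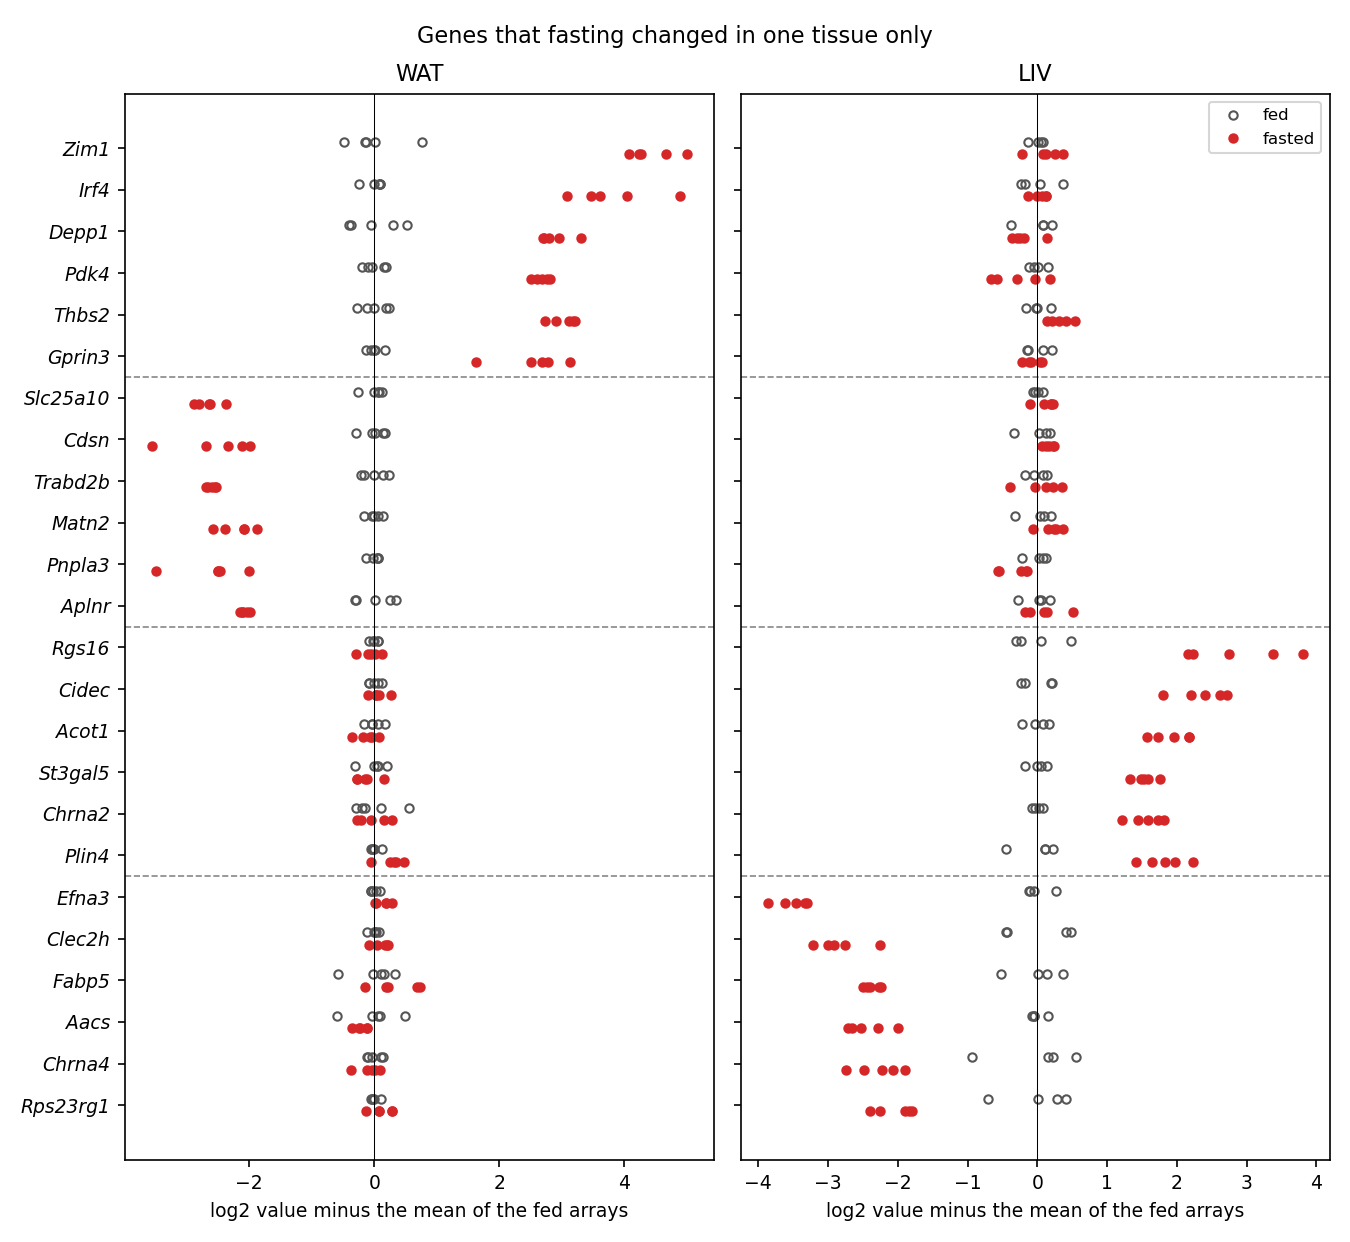
Log2 values of each fed (open) and fasted (filled) array, minus the mean of the fed arrays of the tissue, for genes that fasting changed in WAT only (upper 2 blocks, rose and fell) and in LIV only (lower 2 blocks, rose and fell). In the tissue of the change the fasted arrays lie apart from the fed arrays, for which the genes were chosen, and in the other tissue fed and fasted arrays overlap.

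Genes of proliferating cells were called down in WAT and in both directions in LIV. Of 28, 10 fell and 0 rose in WAT, 5 fell and 3 rose in LIV, and 11 differed. Mki67, a marker of dividing cells, fell by 0.82 ± 0.13 in WAT (-0.10 ± 0.13 in LIV, not called). Mki67 was not called in the difference with all 30 arrays or with fasted SM 1 left out in place of fasted SM 5 (log2 -0.74 to -0.72, adjusted p 0.0599 to 0.0797). Of 30 interferon-stimulated and antigen presentation genes 11 fell in WAT and 10 in LIV, and 13 differed, 7 of them higher in WAT. Psmb10 of the immunoproteasome fell by 0.86 ± 0.11 in LIV (-0.25 ± 0.11 in WAT, not called).

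Liver functions without a counterpart in WAT made up part of this group. Of 39 genes of phase I and II metabolism 11 met the definition of LIV only. In LIV, Cyp17a1, a steroid hydroxylase, rose by 2.74 ± 0.17, Cyp2c55 fell by 3.22 ± 0.12, and Cyp7a1, the rate-limiting enzyme of bile acid synthesis, rose by 0.88 ± 0.09. None of these 3 lay above background in WAT. Cyp2b10, the typical target of the receptor Nr1i3, rose by 2.46 ± 0.40 in WAT (0.22 ± 0.43 in LIV, not called). The steroid dehydrogenase gene Hsd3b5 fell by 4.15 ± 0.21 in LIV, and Asb12 fell by 4.53 ± 0.13 in WAT; each lay below background in the other tissue, and both were named after their values were seen. Of 44 complement, coagulation and acute phase genes 6 fell and 0 rose in LIV, and 6 differed (13.6%, below the 16.1% of all genes).

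Of the 88 genes that changed in the same direction by different amounts, 50 rose and 38 fell, and 54 changed more in WAT. Cdkn1a, the cell cycle inhibitor p21, read 6.49, 6.99, 6.81 and 6.63 in fed and 10.51, 10.39, 9.57, 9.56 and 10.37 in fasted LIV, a 10.2-fold rise, and 9.80, 10.12, 9.97, 9.90 and 9.65 in fed and 11.04, 10.92, 10.68, 10.92 and 10.95 in fasted WAT, a 2.02-fold rise. Gm15441 rose by 3.17 ± 0.18 in LIV and by 0.75 ± 0.17 in WAT. Acer2, a Golgi ceramidase, rose more in WAT (2.03 ± 0.10 and 0.47 ± 0.11), as did Syde2 (2.04 ± 0.14 and 0.68 ± 0.15). With the mean of its probe sets in place of the brightest, Acer2 had fasting changes of 1.15 in WAT and 0.27 in LIV, where it was not called (adjusted p 0.0318, under 1.3-fold). Trp53inp1, a p53 target, rose by 2.44 ± 0.12 in WAT and by 0.40 ± 0.13 in LIV (adjusted p in LIV 0.0393). Trp53inp1 was not called in LIV without any 1 of fed LIV 2, 3 or 5 or fasted LIV 1, 2, 3 or 5 (log2 0.36 to 0.41, adjusted p 0.0559 to 0.125). Trp53inp1 was likewise not called in LIV with the 19 arrays alone or without variance moderation (log2 0.40, adjusted p 0.057 to 0.0689). Vnn1, a pantetheinase, rose by 2.16 ± 0.24 in WAT and by 0.83 ± 0.25 in LIV. Vnn1 was not called in LIV without any 1 of fed LIV 2 or 5 or fasted LIV 5 (log2 0.76 to 0.80, adjusted p 0.0551 to 0.0712). Gamt, the last enzyme of creatine synthesis, and Igfals, the stabiliser of circulating IGF, fell more in WAT (-2.33 ± 0.13 and -2.27 ± 0.10, against -0.79 ± 0.13 and -0.75 ± 0.11 in LIV), and Dpy19l3 fell more in LIV (-2.02 ± 0.12 and -0.55 ± 0.11).

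Markers of other cell types moved in part, and in different directions. Of 11 macrophage markers 3 rose and 1 fell in WAT, 4 fell and 0 rose in LIV, and 6 differed, with a summed level of 4190 to 5170 in fed and 4250 to 6170 in fasted WAT, and 1600 to 2120 in fed and 1140 to 1530 in fasted LIV. The number that differed was 3 with fasted SM 1 left out in place of fasted SM 5, and 4 with all 30 arrays. Mpeg1 rose by 0.78 ± 0.14 in WAT and fell by 0.74 ± 0.15 in LIV, Cd163 rose by 1.13 ± 0.17 in WAT (0.11 ± 0.18 in LIV, not called), and Lyz2 fell by 0.89 ± 0.15 in LIV (-0.03 ± 0.14 in WAT, not called). Mpeg1 was not called in WAT with all 30 arrays or with fasted SM 1 left out in place of fasted SM 5 (log2 0.78, adjusted p 0.109 to 0.113). Mpeg1 was likewise not called in LIV with all 30 arrays or with fasted SM 1 left out in place of fasted SM 5 (log2 -0.84 to -0.74, adjusted p 0.12 to 0.223). Lyz2 was not called in the difference with fasted SM 1 left out in place of fasted SM 5 (log2 0.86, adjusted p 0.0719). Of 6 markers of Kupffer cells, the resident macrophages of liver, 4 fell in LIV, among them Clec4f (-0.55 ± 0.10), with a summed level of 1230 to 1840 in fed and 826 to 1210 in fasted LIV. Genes of antigen presentation fell in LIV beside them, such as H2-Eb1, which fell by 0.85 ± 0.14 in LIV (0.03 ± 0.13 in WAT, not called), and Cd74, which fell by 1.15 ± 0.15 in LIV (-0.34 ± 0.14 in WAT, not called). H2-Eb1 was not called in the difference with all 30 arrays or with fasted SM 1 left out in place of fasted SM 5 (log2 0.88 to 1.07, adjusted p 0.131 to 0.24). H2-Eb1 was likewise not called in LIV with fasted SM 1 left out in place of fasted SM 5 (log2 -0.85, adjusted p 0.116). Cd74 was not called in the difference with all 30 arrays or with fasted SM 1 left out in place of fasted SM 5 (log2 0.81 to 0.98, adjusted p 0.203 to 0.328). The part of these cells in the results was not tested.

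Markers of lymphocytes, neutrophils, epididymis and pancreas had 0 calls in the difference, against 16.1% of all genes. Only 2 of 8 neutrophil, 2 of 11 epididymis and testis and 2 of 7 pancreas markers lay above background in each tissue. Of the 8 lymphocyte markers 6 lay above background in WAT and 5 in LIV. With so few members, many of them dim, 0 calls do not set these lists apart or show that these cells stayed the same. The summed level of 8 lymphocyte markers was 169 to 477 in fed and 166 to 242 in fasted WAT, and their member Ighm, an antibody heavy chain, read 7.08 in fed WAT 2 and 4.21, 3.98, 4.12 and 5.13 in the other fed WAT arrays. Without fed WAT 2 the lymphocyte markers still had 0 calls. Of 8 mesothelium markers Krt18 (0.57 ± 0.14) and Wt1 (0.62 ± 0.12) rose in WAT, and their summed level was 2140 to 3750 in fed and 2330 to 3800 in fasted WAT. Wt1 did not differ by the test without fed LIV 2 (log2 0.51, adjusted p 0.0574). Of 12 muscle fibre markers Acta1 rose (1.53 ± 0.21) and Myl1 fell (-1.40 ± 0.16) in WAT, with a sum of 1380 to 1620 in fed and 1120 to 2230 in fasted WAT. Of 9 endothelial markers Eng, which rose by 0.74 ± 0.08 in WAT (-0.32 ± 0.08 in LIV, not called), and Stab2, which rose by 0.61 ± 0.09 in WAT (-0.05 ± 0.09 in LIV, not called), differed, and the other 7 did not differ by the test, while the summed level was 6640 to 7670 in fed and 7710 to 8950 in fasted WAT.

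SM gave a further tissue beside the opposite changes, from 5 fed and 4 fasted arrays. The SM changes were not used to choose the genes. The SM arrays did enter the estimate of the spread behind the calls, so the choice was not independent of them. Of the 61 genes that rose in WAT and fell in LIV, 18 rose in SM, 3 fell and 40 were not called. Of the 43 that fell in WAT and rose in LIV, 10 fell in SM, 5 rose and 28 were not called. Over all genes 7.81% rose and 5.8% fell in SM. Chac1 (1.15), Inmt (1.31) and Slc7a8 (0.80) rose in SM as in WAT, Slc41a3 (-1.32), Rab30 (-0.70) and Map2k6 (-1.14) fell in SM as in WAT, and Tmem100 (1.02) rose in SM as in LIV. Npas2 (0.05) and Fgfr3 (0.16) were not called in SM.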

How the data were processed

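The authors hybridised RNA of WAT, LIV and SM to Affymetrix Mouse Gene 1.1 ST arrays and deposited log2 values per probe set, made by robust multi-array averaging (RMA) in Partek per the labels, with versions not given in the sources used here. RMA evens out the intensities of the arrays by quantiles, so a change common to most genes would be lost. Medians of the deposited arrays were 4.92 to 5.16.

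From the 28815 probe sets, a model of 6 group means was fitted with limma (version 3.58.1, R 4.3.3) to 28 arrays, without fed LIV 4 and fasted SM 5, which correlated least with their groups. The study's text names fasted SM 1 as left out where the values set fasted SM 5 apart, and that choice was run as an alternative. Moderated tests had their p-values adjusted (Benjamini-Hochberg, every probe set, each contrast by itself), and a call needed an adjusted p under 0.05 and 1.3-fold. The SE and adjusted p-values are from this limma fit, except adjusted p-values given with other arrays or another setting, which are from that refit. Without variance moderation the refit used ordinary t tests. The labels do not say that the mice were handled in separate experiments, so the p-values measure the spread between these mice. Probe sets were named from the platform annotation, where 21153 have 1 symbol, 1867 several and 5795 none, and a gene (18781) took its probe set of highest mean. Background was the percentile 95 of the means of 992 olfactory receptor probe sets, 3.92 in WAT and 4.02 in LIV.

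The comparison, the gene lists and the genes named were chosen with earlier results of these data known. Genes were named by rule, largest difference first: 10 opposite genes each way with arrays apart in both tissues, 6 each way that changed in WAT only and in LIV only, 4 each way of the same direction, and up to 3 of each list. Decr1, Gpd2, Gja1, Acaca, Acadm, Cpt1a, Cpt2, Ucp3, Mgll, Plin5, Lpl, Idi1, Sqle, Fdft1, Acly, Fasn, Gpam, Agpat2, Lpin1, Trib3, Ulk1, Sgk1, Foxo1, Fkbp5, Per1, Tef, Hlf, Lep, Cd74, Cyp7a1 and Psmb10 were added after their values were seen, as were those so described in the text. The fit was tested on simulated data. Figures were drawn in Python (version 3.11.15, matplotlib 3.10.9).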

Additional observations from a re-analysis of the deposited data

Results flagged for a closer look

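The fasting change differed between WAT and LIV by the test of the difference for 3876 probe sets, and 104 genes moved in opposite directions in the 2 tissues.

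For the genes named above, an array was marked where its gap to the nearest array of its group was above the 95% limit of Dixon's test, which chance alone exceeds in about 1 in 20 groups. This held for 35 of 712 groups of arrays. In fed WAT the array apart from the rest was seen for Cyp2b10 (5.38 on array 3 against 4.43 to 4.49), Cyp7a1 (3.08 on array 2 against 2.88 to 2.94), Lyz2 (10.69 on array 3 against 11.02 to 11.13) and Map2k6 (5.68 on array 5 against 6.08 to 6.20). Further such fed WAT arrays were seen for Myc (7.14 on array 5 against 7.31 to 7.37), Tef (6.85 on array 2 against 7.38 to 7.54) and Ucp3 (7.10 on array 3 against 7.70 to 7.93). In fasted WAT the array apart from the rest was seen for Acaca (10.37 on array 5 against 10.70 to 10.83), Ahcy (9.63 on array 4 against 9.15 to 9.24), Alas2 (7.56 on array 3 against 7.97 to 8.13) and Cars (6.94 on array 2 against 7.06 to 7.11). Further such fasted WAT arrays were seen for Cd163 (8.14 on array 1 against 8.60 to 8.70), Hsd3b5 (3.03 on array 5 against 2.72 to 2.79), Maff (6.70 on array 4 against 5.77 to 5.98) and Trp53inp1 (11.23 on array 4 against 10.36 to 10.53). In fed LIV the array apart from the rest was seen for Aacs (8.30 on array 5 against 8.07 to 8.10), Acacb (8.85 on array 3 against 9.12 to 9.16), Dpy19l3 (7.86 on array 5 against 7.75 to 7.75) and Efna3 (8.69 on array 5 against 8.31 to 8.37). Further such fed LIV arrays were seen for Plin4 (6.09 on array 2 against 6.66 to 6.77), Psmb10 (7.87 on array 1 against 8.44 to 8.55), Sik1 (8.84 on array 1 against 8.26 to 8.34) and Slc37a4 (10.44 on array 1 against 10.29 to 10.30). Further such fed LIV arrays were seen for Trp53inp1 (10.02 on array 1 against 9.64 to 9.70) and Trp53inp2 (10.38 on array 2 against 10.22 to 10.24). In fasted LIV the array apart from the rest was seen for Acer2 (8.23 on array 3 against 8.46 to 8.51), Alas2 (8.58 on array 5 against 8.89 to 8.96), Asl (12.02 on array 4 against 11.86 to 11.90) and Bhlhe41 (4.95 on array 4 against 4.28 to 4.47). Further such fasted LIV arrays were seen for Cox8b (3.94 on array 2 against 4.26 to 4.34), Cyp2c55 (4.54 on array 3 against 4.04 to 4.13), Gabarapl1 (11.54 on array 4 against 11.32 to 11.37) and Nr4a1 (5.89 on array 1 against 4.79 to 5.02). Further such fasted LIV arrays were seen for Peg3 (8.11 on array 4 against 7.72 to 7.82) and Scd2 (5.88 on array 4 against 6.32 to 6.44).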

How the results depend on the processing

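The counts followed the minimum fold. With 1.5-fold in place of 1.3-fold, 2034 probe sets differed, 28 genes were opposite, 695 changed in WAT only and 227 in LIV only. With no minimum fold, 352 genes were opposite, 2326 changed in WAT only and 810 in LIV only. Under the other settings (all 30 arrays with and without weights, the 19 arrays alone, another muscle array left out, no moderation, a false discovery rate of 1%, no dim probe sets, the mean of a gene's probe sets, cyclic loess) each count stayed within 1.5 times the value reported. With fasted SM 1 left out in place of fasted SM 5, as the study's text has it, 91 genes were opposite, 90 of them among the 104. Leaving out 1 array at a time gave 3522 to 4097 probe sets, 93 to 107 opposite genes, 1316 to 1595 genes in WAT only and 447 to 529 in LIV only. Of the 104 opposite genes, 51 remained opposite under all 29 settings at the same thresholds. Of the genes named and called in the difference, 199 in number, 15 lost the call under at least 1 of these 29 settings and 0 turned their sign. The settings with another minimum fold or false discovery rate were not part of that count. The uncalled difference of Ighm was 0.19 and that of Acaca 0.0048 without fed WAT replicate 2, where the signs turned, and leaving out 1 array at a time gave -0.58 to 0.19 and -0.24 to 0.0048. For the replicate block, arrays of the same diet and number were taken as 1 mouse. As a random term, 3920 probe sets differed, with 104 opposite genes, 1434 in WAT only and 493 in LIV only. As a fixed term, 3933 probe sets differed, with 104 opposite genes, 1424 in WAT only and 489 in LIV only. The fixed term was fitted for the difference alone, and its calls within WAT and LIV were those of the main fit. Its gene counts could therefore move only through the call of the difference. The labels do not say that a number marks a mouse, the deviations of same-numbered WAT and LIV arrays correlated by -0.0839 to 0.156, and 5 of 9 arrays correlated best with their own number. A change in a tissue where the gene is near background is not measured by these arrays.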
